A study of Homo sapiens with 8 samples.

Results

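The ZFP36 family of messenger RNA decay proteins was followed through 9 probe sets that the platform annotation assigns to ZFP36, ZFP36L1 or ZFP36L2 alone. These 3 genes are among 19775 genes with at least 1 such probe set. ZFP36 had 1 probe set (201531_at), ZFP36L1 had 4 and ZFP36L2 had 4. The brightest probe set by mean log2 intensity over all 8 arrays stood for each gene, which was 211962_s_at for ZFP36L1 and 201368_at for ZFP36L2. The genes were chosen by name, as the annotated members of the family.

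The cells were RL, an established human B lymphoma line that carries the t(14,18) translocation in every group. They were grown for 14 days as multicellular aggregates (MALC) and sorted after staining with the RNA dye pyronin Y. Dull cells were taken as quiescent (4 arrays) and bright cells as cycling (4 arrays), with no other treatment or genotype between them, and RNA of each was hybridised to Affymetrix U133 Plus 2.0 arrays. Nothing in the labels states that the arrays of a group stem from separate cultures. The p-values therefore cover only the spread among these arrays, possibly technical, and all arrays are of 1 line.

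Proteins of this family bind AU-rich elements (AREs) in the 3′ untranslated regions of messenger RNAs through a pair of CCCH zinc fingers and recruit the CCR4-NOT complex, which shortens the poly(A) tail and starts decay of the message. ZFP36, also called tristetraprolin, is an immediate early gene known for restraining TNF. ZFP36L1 and ZFP36L2 are known from mouse B cell development, where they hold precursor cells in a resting state between rounds of division. The p38-MK2 kinases phosphorylate the proteins, which then bind 14-3-3 proteins and are less active, and protein phosphatase 2A opposes this.

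Values are intensities after the authors' scaling, which gave every array a 2% trimmed mean of 500.1, so a difference is relative to the other transcripts on an array. In such bulk samples a lower share of expressing cells and less RNA per cell cannot be told apart, and the sort itself selected on RNA content. As a check of the sort, the proliferation genes MKI67, TOP2A, CCNB1 and PCNA all fell in quiescent cells, with log2 differences of −3.28 to −1.74. The 5 B cell markers with a probe set (MS4A1, CD79A, CD79B, PAX5 and CD22) had means of 2066 or more, whereas T cell, myeloid and stromal markers had means of 214.3 or less. Array medians were higher on quiescent arrays (log2 6.76 ± 0.06 against 6.34 ± 0.19, SD, n = 4 each). So was the ACTB 3′ over 5′ signal, which tracks RNA quality, at log2 2.57 ± 0.18 against 2.02 ± 0.20 (n = 4 each). The GAPDH 3′ over 5′ signal was higher too, at log2 0.113 ± 0.021 against −0.046 ± 0.088 (n = 4 each). By a two-sided exact permutation test each of these 3 array measures had p = 0.0286, and 0.0286 after adjustment over the 3. The part of any of them in the results on the family was not tested.

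Start-site sequences of ZFP36 and ZFP36L1 are shown so that the letters before the start of each can be compared. Each is the 120 bases just before an annotated start, from RefSeq on GRCh38.p14, at chr19:39406727-39406846 on the plus strand for ZFP36 and at chr14:68796244-68796363 and chr14:68793417-68793536 on the minus strand for the upstream and downstream starts of ZFP36L1. Capitals mark matches on either strand to TATAA (the TATA box), GGGCGG (the GC box bound by SP1), CCAAT (the CCAAT box) and TGACGTCA (the cAMP response element), none of which overlap each other here.
ZFP36: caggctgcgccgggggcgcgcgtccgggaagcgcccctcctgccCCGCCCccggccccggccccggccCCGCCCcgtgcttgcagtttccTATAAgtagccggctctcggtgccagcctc
ZFP36L1 upstream start: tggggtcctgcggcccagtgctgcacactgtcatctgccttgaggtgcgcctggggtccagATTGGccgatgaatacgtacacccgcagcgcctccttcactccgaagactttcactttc
ZFP36L1 downstream start: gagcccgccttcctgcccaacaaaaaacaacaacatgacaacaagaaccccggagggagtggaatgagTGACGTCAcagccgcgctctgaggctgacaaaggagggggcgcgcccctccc

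Over the 250 bases before the start, ZFP36 held 1 TATA box, 25 bases before it, and 3 GC boxes, in sequence that was 76.4% G or C. The downstream ZFP36L1 start held the cAMP response element, 44 bases before it, and no TATA or GC box, and the upstream start held 1 CCAAT box. Among all 35116 start-site windows of the same length, 18.9% held a TATA box, 42.6% a GC box, 32% a CCAAT box and 1.65% the cAMP response element. The motifs were chosen after the sequences were seen, and a match is a description of the letters only.

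ZFP36L2 was the member called higher in quiescent cells at its brightest probe set with the deposited scaling. The call was lost when arrays were centred on their median (limma adjusted p = 0.112), as given below. The brightest ZFP36L2 probe set measured 3794, 4904, 5957 and 5671 on cycling samples 1 to 4. On quiescent samples 1 to 4 it measured 7127, 7148, 12386 and 12358. Every quiescent array lay above every cycling array, and quiescent samples 3 and 4 lay well above quiescent samples 1 and 2. The means were 5082 ± 967 and 9755 ± 3022 (SD, n = 4 each). ZFP36L2 rose by 0.91 on the log2 scale, a 1.88-fold difference (SE 0.21, 95% interval 1.38 to 2.56-fold, limma adjusted p = 0.00594). Of the 11678 genes tested, 12.2% were called higher and 15.4% lower, and 13.3% had all quiescent arrays above all cycling arrays. The rise had rank 693 of the 11678 log2 differences. Within the sample numbers the log2 difference was 0.91, 0.54, 1.06 and 1.12, so each of the 4 numbers had the higher value in the quiescent fraction.

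The dimmer ZFP36L2 probe sets pointed the same way. 201369_s_at measured 96.7, 164, 128 and 155 on cycling samples 1 to 4 and 299.6, 186, 238 and 252 on the quiescent samples. 201367_s_at lay between 99.96 and 107 on cycling and between 151 and 384 on quiescent arrays, so the groups of both were apart. They rose by 0.85 and 1.23 on the log2 scale (limma adjusted p over 27307 probe sets 0.0296 and 0.00872), where 16.3% of probe sets were called higher and 17.1% had all quiescent arrays above all cycling arrays. The call for 201369_s_at was lost without any of 5 arrays, cycling samples 1 and 3 and quiescent samples 1, 3 and 4 (adjusted p of 0.0634 to 0.0798), and also with no filter on dim probe sets (0.0573). 227681_at was under the filter, with 17.3 to 30.9 on cycling and 25.3 to 77.6 on quiescent arrays, and its groups overlapped. Of the 4 probe sets, 3 passed the filter.

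ZFP36L1 differed less. Its brightest probe set measured 1085, 1533, 1500 and 1422 on cycling samples 1 to 4 and 1470, 1908, 1787 and 1926 on quiescent samples 1 to 4. The groups overlapped through quiescent sample 1, which lay below cycling samples 2 and 3. The means were 1385 ± 205 and 1773 ± 211 (SD, n = 4 each), and the log2 difference of 0.36 (SE 0.15, 95% interval 0.033 to 0.69) did not pass (limma adjusted p = 0.0952). Within each of the 4 sample numbers the quiescent value was the higher, by 0.44, 0.32, 0.25 and 0.44. Of the fits that left out 1 array, only that without quiescent sample 1 passed (difference 0.45, limma adjusted p = 0.0464). The others had limma adjusted p of 0.0744 to 0.241. With the sample number as a block in the fit, the difference of 0.36 also passed (limma adjusted p = 0.0255).

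The other ZFP36L1 probe sets spanned a wide range of brightness. 211965_at measured 174 to 196 on cycling and 236 to 266 on quiescent arrays, with the groups apart. Its log2 difference of 0.45 did not pass over all probe sets (limma adjusted p = 0.119). 213277_at measured 116 to 125 on cycling and 113 to 220 on quiescent arrays, which overlap, with a log2 difference of 0.44 (adjusted p = 0.282). 213284_at was under the filter, at 7.38 to 19.5 on cycling and 53.6 to 122 on quiescent arrays. Its groups were apart, as they were, with all quiescent arrays higher, for 11.5% of all probe sets without a filter. No size is given for a difference at such low intensities. Averaging all 4 probe sets in place of the brightest gave a log2 difference of 0.99 for ZFP36L1 (adjusted p = 0.00425), a value that includes this dim probe set.

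ZFP36 itself was bright in both fractions and did not pass. It measured 6207, 5990, 7397 and 7141 on cycling samples 1 to 4 and 8033, 5223, 7164 and 7751 on quiescent samples 1 to 4. The highest and the lowest of the 8 values were both quiescent, so the groups overlapped fully. The means were 6684 ± 690 and 7043 ± 1266 (SD, n = 4 each), and the log2 difference of 0.062 (SE 0.14) had a 95% interval of 0.84 to 1.29-fold (limma adjusted p = 0.781). The quiescent value was higher in 2 of the 4 sample numbers.

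**Figure D1:**
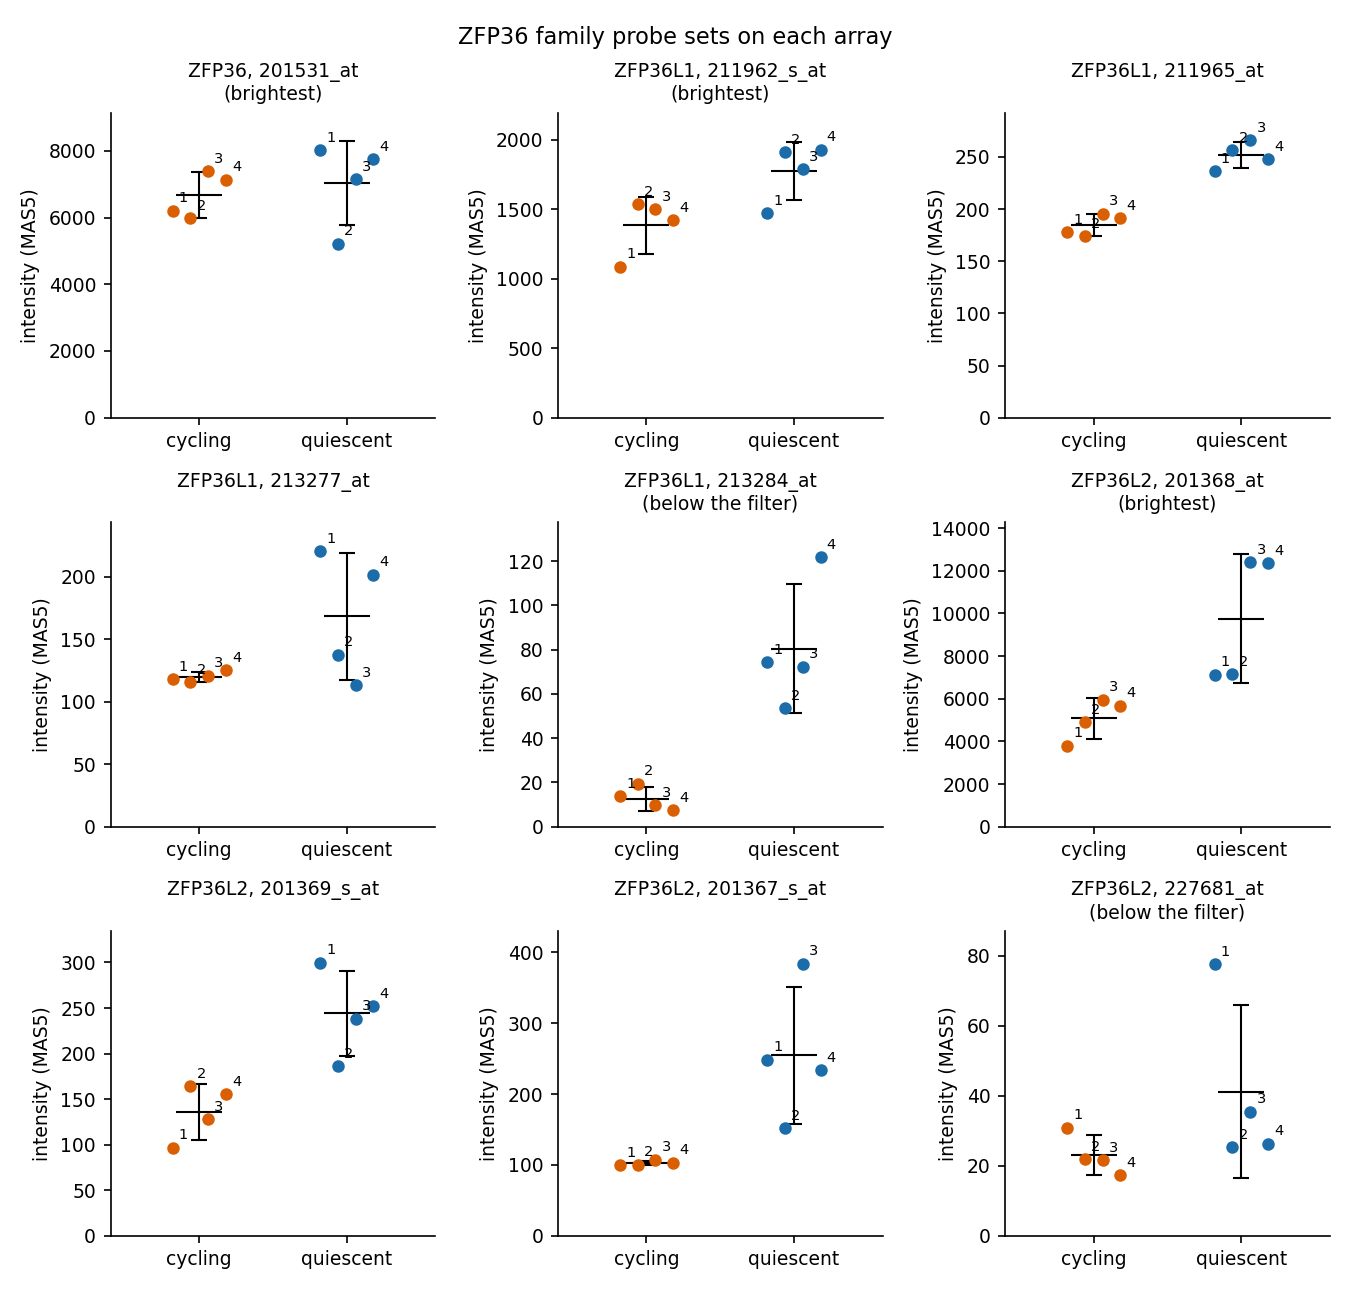
Intensity of each of the 9 family probe sets (y axis, MAS5 intensity, linear, from 0) on the cycling and quiescent arrays, with sample numbers beside the points and bars at the mean ± SD (n = 4). The quiescent points of ZFP36L2 201368_at lie between 7127 and 12386, all above the cycling points, whereas those of ZFP36 lie between 5223 and 8033, on both sides of the cycling points.

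Exact two-sided permutation tests over the 70 assignments of arrays used no other gene. The exact permutation p was 0.0286, the smallest possible, for the 3 ZFP36L2 probe sets that passed the filter and for 211965_at and 213284_at of ZFP36L1. Adjusted over the 9 probe sets these became 0.0514. With 4 arrays a group, at least 6 of the 9 probe sets must reach the smallest p for any to pass, and 5 did. The brightest ZFP36L1 probe set had exact permutation p = 0.0857 (adjusted 0.129) and ZFP36 had p = 0.743 (adjusted 0.743).

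The scaling of arrays bears on these values. Centring every array on its median log2 value lowers every difference by 0.41, and it moved the median difference of all genes from 0.081 to −0.33. Quantile normalization gave a median of −0.037. After centring, 327 genes were called higher (2.8%) and 3795 lower (32.5%), against 1430 and 1802 as deposited and 1232 (10.5%) and 1909 (16.3%) after quantile normalization. ZFP36L2 was higher by 0.50 when centred, which did not pass (limma adjusted p = 0.112), and by 1.03 after quantile normalization (adjusted p = 0.00287). Its dimmer probe sets 201369_s_at and 201367_s_at did not pass under centring (limma adjusted p = 0.235 and 0.0584, in that order), where 4.26% of probe sets were called higher. They did not pass under quantile normalization either (0.176 and 0.0571), where 11.3% were called higher. ZFP36L1 had −0.051 centred and 0.39 after quantile normalization (adjusted p = 0.859 and 0.0691), and ZFP36 had −0.35 and 0.19 (0.176 and 0.354). Of the dimmer ZFP36L1 probe sets, 211965_at had 0.034 centred and 0.13 after quantile normalization, and 213277_at had 0.023 and 0.067. Neither passed under either scaling (limma adjusted p of 0.696 to 0.966). The negative signs under centring follow from the shift of 0.41, which turns any smaller difference. Relative to the median of all genes, ZFP36L2 stood at 0.83, ZFP36L1 at 0.28 and ZFP36 at −0.019 as deposited or centred, and at 1.07, 0.43 and 0.22 after quantile normalization. Centring cannot change the order of the members, and quantile normalization did not change it either.

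**Figure D2:**
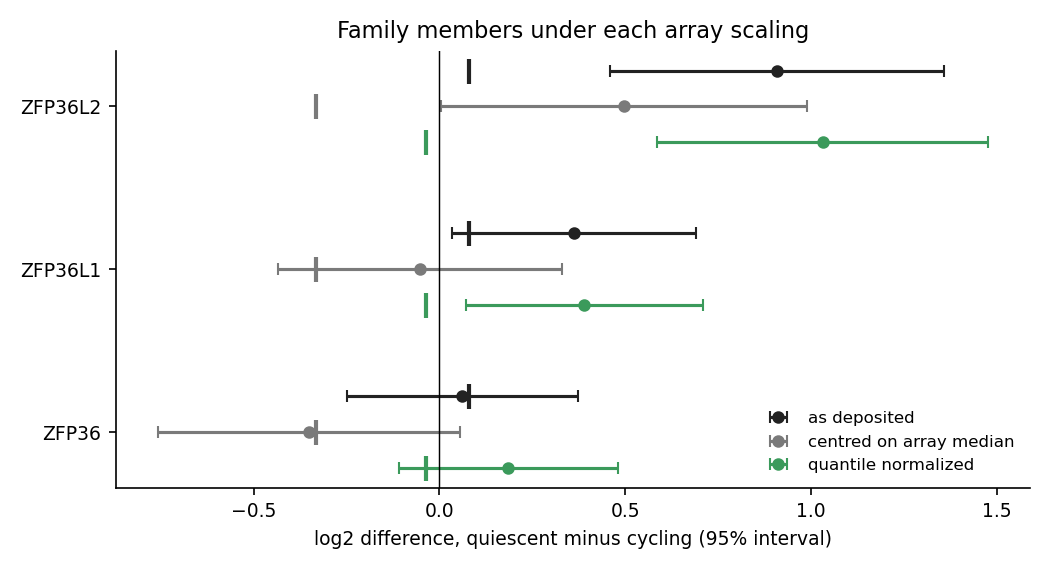
Log2 difference (x axis, quiescent minus cycling) of each family gene at its brightest probe set, with 95% intervals from limma, under 3 scalings of the arrays; short vertical ticks mark the median of all 11678 genes under that scaling. ZFP36L2 lies to the right of that median by 0.83 to 1.07, while ZFP36 lies within 0.22 of it.

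Whether the members moved by unequal amounts was asked of log2 ratios between members on the same array, which array centring cannot change. The level of such a ratio has no meaning across probe sets, and its difference between fractions does. ZFP36L2 over ZFP36 was −0.71, −0.29, −0.31 and −0.33 on cycling samples 1 to 4 and −0.17, 0.45, 0.79 and 0.67 on quiescent samples 1 to 4. The groups did not overlap, and the ratio was 1.80-fold higher in quiescent cells (log2 difference 0.85, two-sided exact permutation p = 0.0286, adjusted over 3 pairs 0.0857). ZFP36L2 over ZFP36L1 was 1.68 to 2.00 on cycling and 1.91 to 2.79 on quiescent arrays, a difference of 0.55 (exact permutation p = 0.0857, adjusted 0.129) with quiescent sample 2 inside the cycling range. ZFP36L1 over ZFP36 differed by 0.30 (exact permutation p = 0.286, adjusted 0.286). None of the 3 pairs passed after adjustment. With 4 arrays a group, 1 pair alone cannot pass, since at least 2 of the 3 must reach the smallest p. All 3 ratios were higher in the quiescent fraction within all 4 sample numbers, by 0.54 to 1.10, 0.23 to 0.80 and 0.066 to 0.51. Without quiescent sample 2, ZFP36L2 over ZFP36 (0.84) and over ZFP36L1 (0.72) both passed (exact permutation, adjusted p = 0.0429). When any other single array was left out, neither passed (adjusted exact permutation p of 0.0857 to 0.171 and 0.114 to 0.214). After quantile normalization both passed (0.84 and 0.64, adjusted exact permutation p = 0.0429). With the mean of all probe sets of a gene, which includes the dim ones, ZFP36L2 over ZFP36L1 turned to −0.062 (exact permutation p = 0.743), and the other 2 ratios passed (0.86 and 0.93, adjusted exact permutation p = 0.0429).

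**Figure D3:**
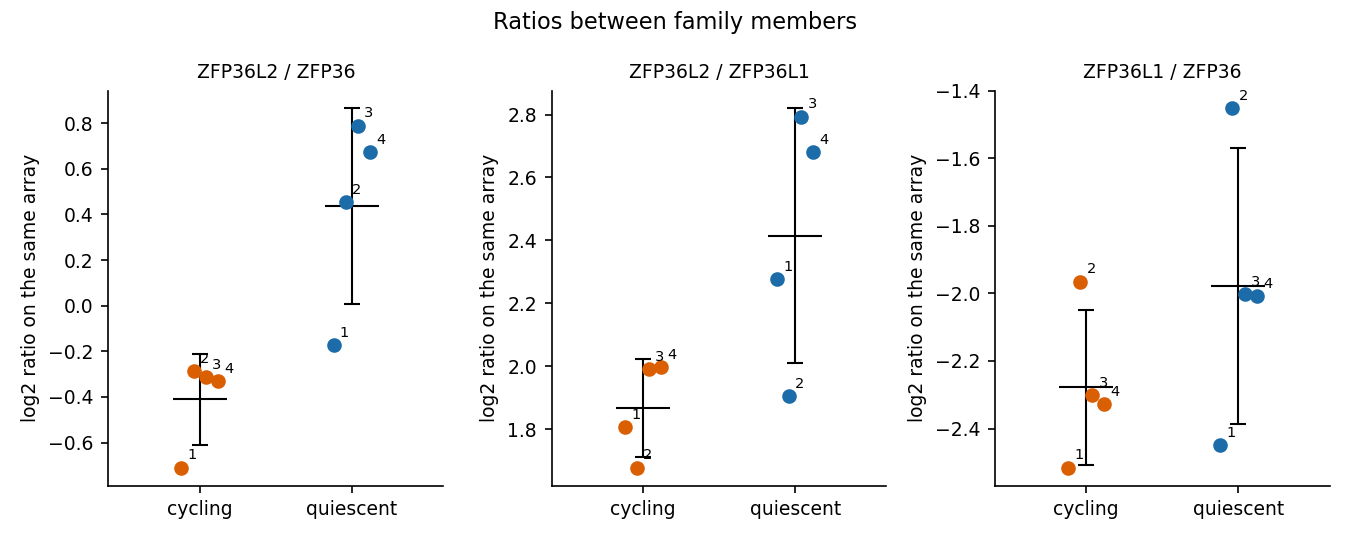
Log2 ratio between 2 family members on the same array (y axis, brightest probe sets; axes do not start at 0) in cycling and quiescent samples, with sample numbers beside the points and bars at the mean ± SD (n = 4). ZFP36L2 over ZFP36 is the pair whose groups do not overlap, with cycling points from −0.71 to −0.29 and quiescent points from −0.17 to 0.79.

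Over all 8 arrays the genes whose log2 profile was most like that of ZFP36L2 were B2M, the light chain of MHC class I (Pearson r = 0.987), TRANK1 (0.987) and STK10, a lymphocyte kinase (0.978). All 3 were called higher. Within the 4 quiescent arrays alone r was 0.974, 0.979 and 0.968, and within the 4 cycling arrays 0.946, 0.984 and 0.867. The quiescent ZFP36L2 values lay near 2 levels, 7127 and 7148 for samples 1 and 2 and 12386 and 12358 for samples 3 and 4. The r within quiescent arrays therefore rests mainly on that split. The genes were picked by r over these same arrays, so their calls and the high values within a fraction follow in part from the choice. ZFP36L1 was most like BTN3A3 (0.993), ACBD5 (0.990) and ZNF827 (0.985), none of which passed (limma adjusted p of 0.0591 to 0.0844). ZFP36 was most like ENTPD1-AS1 (0.963), MYL6 (0.953) and NT5C (0.943), with log2 differences of 0.065 to 0.068. Between members, r was 0.825 for ZFP36L1 with ZFP36L2, 0.417 for ZFP36 with ZFP36L2 and −0.0045 for ZFP36 with ZFP36L1. These values describe 8 arrays in 2 fractions, which also share their scaling.

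The genes that work with the family are described from 5 lists, beside the 12.2% of all genes called higher, the 15.4% called lower and the median difference of 0.081. The first holds other proteins that bind AU-rich or structured elements. Of its 13 tested members (of 15 listed) 2 rose and 4 fell, and the median was 0.15. TIA1, a translational repressor of ARE-bearing messages, rose from 1145 ± 150 to 2050 ± 230 (SD, n = 4 each). RC3H1, which encodes the decay factor Roquin-1, rose from 1064 ± 282 to 1660.2 ± 351.4. Neither passed when centred. HNRNPAB fell from 29128 ± 2980 to 15906 ± 2446, HNRNPD (AUF1) from 17717 ± 3114 to 10392 ± 1162 and KHSRP, a decay-promoting protein, from 1836 ± 170 to 1285 ± 98.1. ELAVL1, which encodes the stabilising protein HuR, fell from 9220 ± 768 to 6641 ± 996 (log2 difference −0.48, limma adjusted p = 0.0116). These 4 were lower in each of the 3 scalings at the brightest probe set, but probe sets of a gene disagreed. Of 7 for HNRNPD, 4 were called lower and 2 higher, and 2 of 4 for ELAVL1 and 1 of 4 for KHSRP were called lower, with others up to 0.35 and 0.19 on the log2 scale. Of 6 for TIA1, 3 were called higher, and the lowest had −0.21. RC3H1 lost its call without any of 6 arrays, cycling samples 1, 3 and 4 and quiescent samples 2, 3 and 4 (adjusted p of 0.0693 to 0.0984).

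Most deadenylase genes, whose products shorten poly(A) tails, did not pass. Of 15 tested members (of 16 listed) 2 rose and 0 fell, and the median was −0.086. CNOT1, the scaffold that family members bind directly, measured 3811 ± 290.5 and 3195 ± 349 and did not pass (log2 difference −0.26, limma adjusted p = 0.137). CNOT6L, a catalytic subunit, rose from 905 ± 187 to 1620 ± 151, a log2 difference of 0.86, and all 4 of its probe sets tested were called higher. PAN2, the nuclease of the other deadenylase complex, rose from 1199.7 ± 156 to 2155 ± 314 (0.84). Neither passed when centred (adjusted p = 0.111 and 0.0708), where 8 of the 15, CNOT1 among them, were called lower beside 32.5% of all genes.

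Decapping genes went both ways. Of 14 members tested 2 rose and 4 fell, and the median was 0.094. XRN1, the 5′ exonuclease, rose from 749.6 ± 111 to 1338 ± 472, and LSM14A, a P-body protein, from 15370 ± 1592 to 19215 ± 2116. EIF4E2, a cap-binding repressor, fell from 3475 ± 324 to 2107 ± 495, DCPS, which clears the cap after decay, from 1462 ± 103 to 923 ± 53.1, and EDC3, a decapping enhancer, from 883 ± 75.5 to 626 ± 49.5. Other probe sets differed in sign, up to 0.19 for EDC3, with 1 of 2 called lower, and up to 0.32 for EIF4E2, with 2 of 4. The falls at the brightest probe set also passed under the other 2 scalings and the rises did not pass when centred. The fourth fall was LSM1, a part of the ring that binds deadenylated messages. XRN1 lost its call without cycling sample 3 or 4 or quiescent sample 2 or 4 (adjusted p of 0.0584 to 0.0679), EDC3 without sample 3 or 4 of either fraction (0.0542 to 0.0809), and LSM14A without any of 6 arrays, all but cycling sample 3 and quiescent sample 4 (0.0508 to 0.135). Without cycling sample 2, the cycling array most correlated with the quiescent ones, 1 decapping gene rose in place of 2, while 14.5% of all genes were called higher and 16.1% lower.

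Genes that regulate the family's activity included falls and no rise. Of 17 tested (of 19 listed) 0 rose and 6 fell, and the median was −0.072. The 14-3-3 genes YWHAE, YWHAH and YWHAQ fell from 3878 ± 528 to 2163 ± 549, from 1133 ± 196 to 760.0 ± 125 and from 21792 ± 2653 to 15240 ± 675. YWHAB, YWHAG and the phosphatase 2A catalytic gene PPP2CA made up the rest. MAPKAPK2, which encodes MK2, measured 1025 ± 118 and 1077 ± 80.5 and did not pass (log2 difference 0.077, limma adjusted p = 0.717). YWHAE, YWHAH, YWHAQ and PPP2CA also passed under the other 2 scalings, whereas YWHAB and YWHAG did not pass after quantile normalization. YWHAH lost its call without cycling sample 1 or 3 or quiescent sample 2 or 3 (adjusted p of 0.0598 to 0.0789), and another of its probe sets had a log2 difference of 0.74. YWHAB lost its call without any of 4 arrays, quiescent sample 1 and cycling samples 1, 3 and 4 (0.0522 to 0.0731), and YWHAG without any of 6, all but quiescent samples 1 and 2 (0.0539 to 0.123).

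The last list holds messages known as targets of the family in some cell type. Of 30 with a probe set (of 34 listed) 17 passed the filter, and most of its cytokine and chemokine genes, such as IL2, IL6, IL10 and CXCL8, lay under it. Of the 17 tested 4 rose and 3 fell, and the median was 0.26. VEGFA, an angiogenic factor, rose from 7438 ± 1273 to 15254 ± 1093 (log2 difference 1.05, limma adjusted p = 8.51e-05) and passed under all 3 scalings. PIM1, a survival kinase, rose from 523 ± 90.5 to 813 ± 37.2 and BCL2, which the t(14,18) translocation drives, from 1186 ± 127 to 1752 ± 349. STAT5B was the fourth, and PIM1, BCL2 and STAT5B did not pass when centred. E2F2 fell from 1485 ± 376 to 409 ± 190, E2F1 from 298 ± 77.0 to 147 ± 2.25 and the cyclin CCNE2 from 1227 ± 117 to 698 ± 336, and each passed under all 3 scalings. TNF measured 1538 ± 191 and 1864 ± 400 (log2 difference 0.26, limma adjusted p = 0.269). MYC measured 4172 ± 1691 and 3065 ± 936 (−0.41, 0.345) and CCND3 3513 ± 528 and 2824 ± 508 (−0.32, 0.159). None of these passed. With the sample number as a block in the fit, MYC and CCND3 were called lower (limma adjusted p = 0.021 and 0.03), and the list had 7 higher and 5 lower. BCL2 lost its call without sample 3 or 4 of either fraction (adjusted p of 0.058 to 0.0787) and CCNE2 without cycling sample 1 or 4 or quiescent sample 4 (0.0531 to 0.0663). STAT5B lost its call without any of 6 arrays, all but cycling sample 1 and quiescent sample 3 (0.0658 to 0.137).

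**Figure D4:**
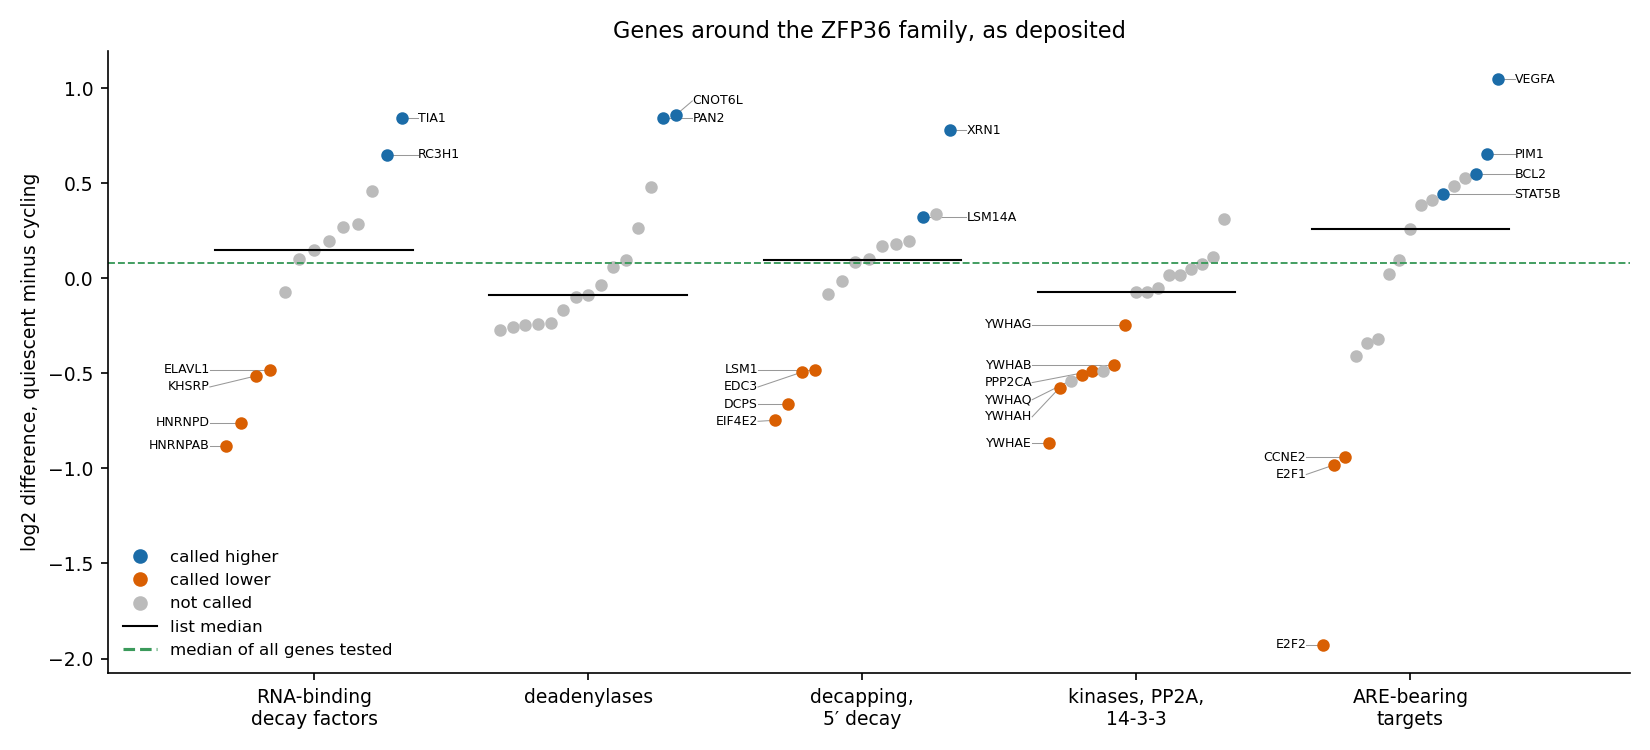
Log2 difference (y axis, quiescent minus cycling, as deposited) of each tested gene in the 5 lists around the family, sorted within a list; blue and orange points were called higher and lower by limma at an adjusted p under 0.05, black bars are list medians and the dashed line is the median of all genes tested. The regulator list has 6 called lower and 0 higher, and E2F2 (−1.93) and VEGFA (1.05) mark the ends of the target list.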

How the data were processed

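Total RNA of 8 samples, 4 quiescent and 4 cycling, was measured on 1 array each, and groups come from the sample titles. The authors deposited MAS5 intensities on a linear scale, per the submitters' processing notes (in a version not given in the sources used here). Depth of such values is limited by the number of arrays. Control probe sets (62) were left out of the tests. Of the other 54613 probe sets, 41091 had 1 gene symbol in the platform annotation, which can be old, 1801 had several, and the rest were unlisted. Entrez identifiers were matched to RefSeq (GRCh38.p14) for names, and no symbol changed.

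A floor of 1 was applied before log2, and the deposited scaling was kept. Genes at or above the median of all probe sets (83.3) were tested, 11678 of 19775. Groups were compared with lmFit and eBayes (trend, robust) of limma 3.58.1 in R 4.3.3, Benjamini-Hochberg adjusted over all genes, at a threshold of 0.05. Probe sets were fitted separately (27307). The code was tested on simulated data. Summaries were made with pandas 2.3.3 (Python 3.11.15) and plots with matplotlib 3.10.9.

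The genes, lists and tests were chosen with earlier results of these data known. Named genes are the family, up to 3 called rises and 3 falls per list, 10 fixed genes and the 3 most alike genes per member; others named were chosen after their values were seen. List counts without cycling sample 2 and with the sample number as a block were added after seeing the data. Other alternatives were array centring, quantile normalization, no filter or the 75th percentile, log2(intensity + 16), plain eBayes, mean of probe sets, the sample number as a block, and leaving out each array. Every column of values was used.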

Additional observations from a re-analysis of the deposited data

Results flagged for a closer look

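Among 78 groups of 4 arrays examined for a single array far from the others (chance alone picks about 1 in 20), 4 were picked out. On cycling sample 1 the log2 ratio of ZFP36L2 over ZFP36 was −0.71, below the other cycling arrays. In the cycling group the lowest array lay far below the rest for HNRNPAB (an intensity of 24673), TNF (1253) and PIM1 (388).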

How the results depend on the processing

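Centring the arrays on their medians gave 327 genes higher and 3795 lower, ended the ZFP36L2 call (0.50) and left ZFP36 at −0.35 and ZFP36L1 at −0.051, signs set by a shift of 0.41 common to all genes. It gave 0 higher in place of 2 in the RNA-binding, deadenylase and decapping lists, 8 lower deadenylase genes in place of 0, and 1 higher and 5 lower targets in place of 4 and 3. Without single arrays 945 (without quiescent sample 3) to 1697 genes were higher and 1419 to 1900 lower. The log2 difference ran from −0.0082 (without quiescent sample 1) to 0.20 for ZFP36, 0.25 to 0.45 for ZFP36L1 and 0.77 to 1.04 for ZFP36L2, which kept its call (limma adjusted p of 0.00269 to 0.023). The ratio difference ran from 0.73 to 1.05 for ZFP36L2 over ZFP36, 0.42 to 0.72 for ZFP36L2 over ZFP36L1 and 0.12 to 0.46 for ZFP36L1 over ZFP36. The first 2 passed without quiescent sample 2 (0.84 and 0.72, exact permutation, adjusted p = 0.0429). When any other single array was left out, none of the 3 ratios passed (adjusted exact permutation p of 0.0857 to 0.543). After quantile normalization the first 2 ratios passed (0.84 and 0.64, adjusted exact permutation p = 0.0429). With the mean of all probe sets, ZFP36L1 passed (0.99), as did its ratio over ZFP36 (0.93) and that of ZFP36L2 over ZFP36 (0.86), and ZFP36L2 over ZFP36L1 turned (−0.062). Without cycling sample 2 the decapping list had 1 higher. Beyond that shift, the cause was not tested where values changed.

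The sample numbers were not used to pair the arrays in the main fit, since the rule used asked more of every same-numbered pair than number 4 gave. Same-numbered deviations correlated by 0.34, 0.20, 0.11 and 0.036 for numbers 1 to 4, against −0.17 to 0.14 for other pairs. Of the 4 cycling arrays, 3 correlated best with their own number, so a pairing of the arrays remains possible. With the sample number as a block, 2002 genes were higher and 2232 lower, ZFP36L1 passed (0.36, limma adjusted p = 0.0255), ZFP36L2 still passed (3.77e-05) and ZFP36 did not (0.686). The target list then had 7 higher and 5 lower in place of 4 and 3, with MYC (limma adjusted p = 0.021) and CCND3 (0.03) among the lower, the RNA-binding list 4 higher in place of 2, the deadenylases 3 higher, the decapping list 2 and 4, and the regulators 8 lower in place of 6. For the ratios, sign flips of 4 pairs cannot give p under 0.125.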
